A study of Homo sapiens with 2 samples.

Results

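Peaks of CREB chromatin immunoprecipitation (ChIP) that lie at the proximal ends of the acrocentric chromosomes, including the ribosomal DNA (rDNA) of chromosome 21, were examined in NGP cells. A peak was taken when its summit lay below 18 Mb on chromosomes 13, 14, 15 or 22, or below 13 Mb on chromosome 21, in hg38 coordinates. This gave 611 of the 5285 peaks in the deposited list (11.6%, exact Clopper-Pearson 95% interval 10.7 to 12.5). The study comprised 1 ChIP library made with an antibody against CREB and 1 Input library of DNA taken without immunoprecipitation, both from NGP, an established human neuroblastoma line, grown with 20% serum and harvested at 80 to 90% confluency. Both libraries started from 4 ng of DNA and were size selected at 250 to 450 bp. With a single ChIP library there is no replicate, so differences between peaks are given as descriptions without a test. The series set these peaks beside a knockdown experiment, to look for target genes of CREB and the kinase-like protein CAMKV. NGP is 1 line, and the peak list holds no expression values against which its identity could be checked.

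CREB is a transcription factor that binds cAMP response elements, mostly at promoters of genes read by RNA polymerase II, and is switched on by phosphorylation through cAMP- and calcium-dependent kinases. The rDNA lies on the short arms of chromosomes 13, 14, 15, 21 and 22 in long tandem arrays, where RNA polymerase I reads a 45S precursor that is cut into the 18S, 5.8S and 28S ribosomal RNAs. Within each repeat the precursor runs through the 5′ external transcribed spacer (ETS), 18S, the first internal transcribed spacer (ITS1), 5.8S, ITS2, 28S and the 3′ ETS, and a long intergenic spacer follows. The factors UBF and SL1 assemble just upstream of the 5′ ETS. The build hg38 holds only a few of these repeats, leaves most of the short arms of chromosomes 13, 14 and 15 as gaps, and fills centromeres with modelled alpha-satellite sequence. A name that calls all of these peaks short-arm peaks is too narrow. The rule also takes in modelled centromere sequence, and 1 peak on chromosome 22 overlapped ADA2, a long-arm gene. How many of the peaks lie in modelled centromere was not counted. Outside chromosome 21 the first peak began at 16137087 on chromosome 13 and at 16255077 on chromosome 14. It began at 17082520 on chromosome 15 and at 11353021 on chromosome 22. All peaks taken by the rule are called acrocentric peaks here. Repeat copies share near-identical sequence, and how reads that fit several copies were placed is not given in the sources used here.

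The rDNA of chromosome 21 also holds microRNA genes, and 4 of them overlapped a peak. Mature sequences of the microRNAs of this interval are shown because the authors' deposited table pairs them with more acrocentric peaks than any protein-coding gene. The RefSeq table (GRCh38.p14) matched 5 of the 8 annotated there, MIR6724-2, MIR6724-4, MIR10396B, MIR3648-2 and MIR10396A, with 6 distinct mature sequences, printed with the seed (bases 2 to 8) in capitals, all on the plus strand.
hsa-miR-6724-5p (chr21:8249515-8249537 and chr21:8432540-8432562): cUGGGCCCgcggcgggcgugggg
hsa-miR-3648 (chr21:8987026-8987046): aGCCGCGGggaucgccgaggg
hsa-miR-10396a-5p (chr21:8987617-8987635): gGCGGGGCucggagccggg
hsa-miR-10396b-5p (chr21:8436324-8436343): cGGCGGGGcucggagccggg
hsa-miR-10396a-3p (chr21:8987645-8987665): gGCCCCGGgcccucgaccggg
hsa-miR-10396b-3p (chr21:8436353-8436374): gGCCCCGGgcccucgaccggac
The 3p arms of miR-10396a and miR-10396b share the seed GCCCCGG, while the other sequences have a seed each, 5 seeds in all. All 6 were rich in G and C, from 81.0 to 91.3%. The MIR10396A and MIR10396B hairpins, of 49 and 51 bases, shared a run of 48 bases, and the MIR6724-2 and MIR6724-4 hairpins were identical.

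Peaks were unevenly spread over the acrocentric ends. Chromosome 21 held 239, chromosome 22 134, chromosome 13 130, chromosome 14 105 and chromosome 15 3. These counts were not set against the length of sequence below each limit. Of the chromosome 21 peaks, 111 lay between 8 and 9 Mb, the interval of the annotated rRNA units (the rDNA interval below), 39 between 11 and 12 Mb and 82 between 12 and 13 Mb. The fullest windows of 1 Mb were 8 to 9 Mb on chromosome 21, then 17 to 18 Mb on chromosome 13 with 98 peaks, 14 to 15 Mb on chromosome 22 with 84, the 12 to 13 Mb window of chromosome 21, and 17 to 18 Mb on chromosome 14 with 77. On chromosomes 13 and 14 the 18 Mb limit fell inside a run of peaks. The peaks nearest to it had a fold enrichment (ChIP over expected background, the authors' value) of 5.64 just inside and 4.82 just outside on chromosome 13, and of 4.11 and 4.41 on chromosome 14. On chromosome 15 both were 4.82, the last inside 366 kb before the limit and the first outside 64.2 kb beyond it. The count of 3 on chromosome 15 may thus depend on where the limit falls. On chromosome 21 the last peak inside had a fold of 3.80 and the next outside, 4870 kb beyond the limit, 4.01. On chromosome 22 they were 4.64 and 6.48.

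The strength of the peaks differed most between the rDNA interval and the rest. The number of ChIP fragments at each summit and the background the peak caller expected there were recovered from the fold and p-value, for all 611 peaks. In the rDNA interval the median summit held 25 fragments (quartiles 14.5 to 32) over a background of 3.92 fragments, for a median fold of 4.90 (range 2.16 to 21.7). In the other 500 acrocentric peaks the median was 7 fragments (quartiles 6 to 9) over 0.316, for a fold of 5.62 (3.78 to 13.4). A high background, of 1 fragment or more, was found at 73.9% of the rDNA interval peaks and 5.40% of the other 500. Among the 4674 other peaks of the list this share was 10.1%, so it was higher in the rDNA interval and lower in the other 500. A fold of 10 or more was reached by 31 acrocentric peaks (5.07%, 95% interval 3.47 to 7.12), against 4.09% of all peaks in the list. Of these 31, 19 lay in the rDNA interval (17.1% of its peaks, 95% interval 10.6 to 25.4) and 12 elsewhere (2.40%, 1.25 to 4.15). These intervals take each peak as separate, which peaks on rDNA copies of shared sequence are not, so they may be too narrow.

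**Figure D1:**
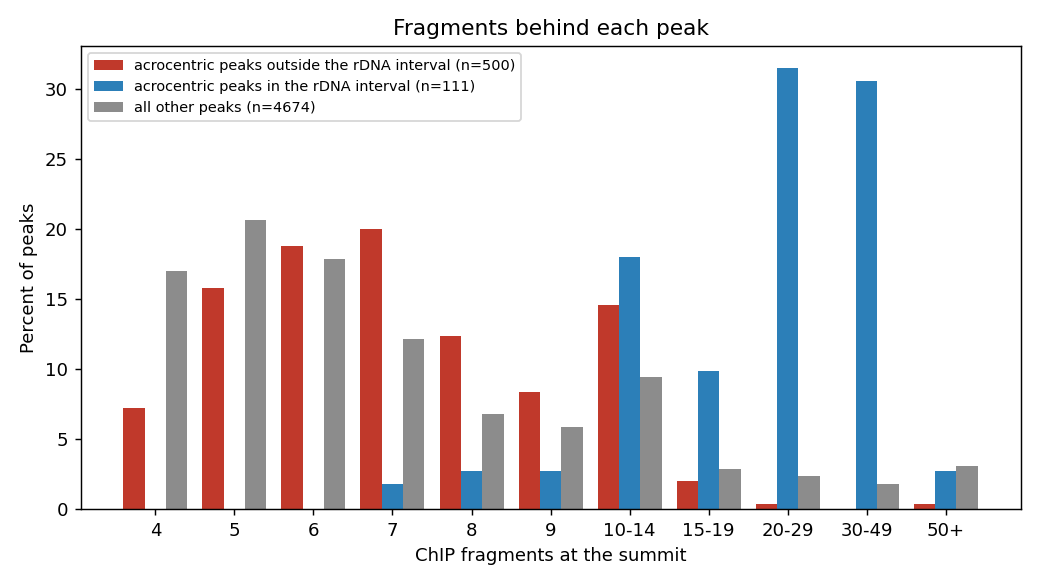
The percent of peaks (vertical axis) with a given number of ChIP fragments at the summit (horizontal axis, grouped from 10 upward) in 500 acrocentric peaks outside the rDNA interval, 111 peaks in it and 4674 other peaks of the list. Most peaks outside the rDNA interval held 5 to 8 fragments, and most in it 20 or more.

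On chromosome 21 peaks covered 4 rDNA copies: the annotated units RNA45SN2, RNA45SN3 and RNA45SN1, and a partial copy with the pseudogenes RNA18SP5, RNA5-8SP10 and LOC110467529. In all, 106 of the 111 peaks lay in or beside these copies, 33 in RNA45SN2 with its spacer, 9 in the partial copy, 34 in RNA45SN3 and 30 in RNA45SN1. The units are 13.3 to 13.4 kb long and spaced 44.2 kb apart from RNA45SN3 to RNA45SN1. They lie at 8205988 to 8219302 (RNA45SN2), 8389035 to 8402343 (RNA45SN3) and 8433222 to 8446572 (RNA45SN1). They were overlapped by 13, 10 and 7 peaks, which are not 30 separate sites, since the units share sequence. Positions below are given from the start of 18S, so that the copies can be laid over each other.

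**Figure D2:**
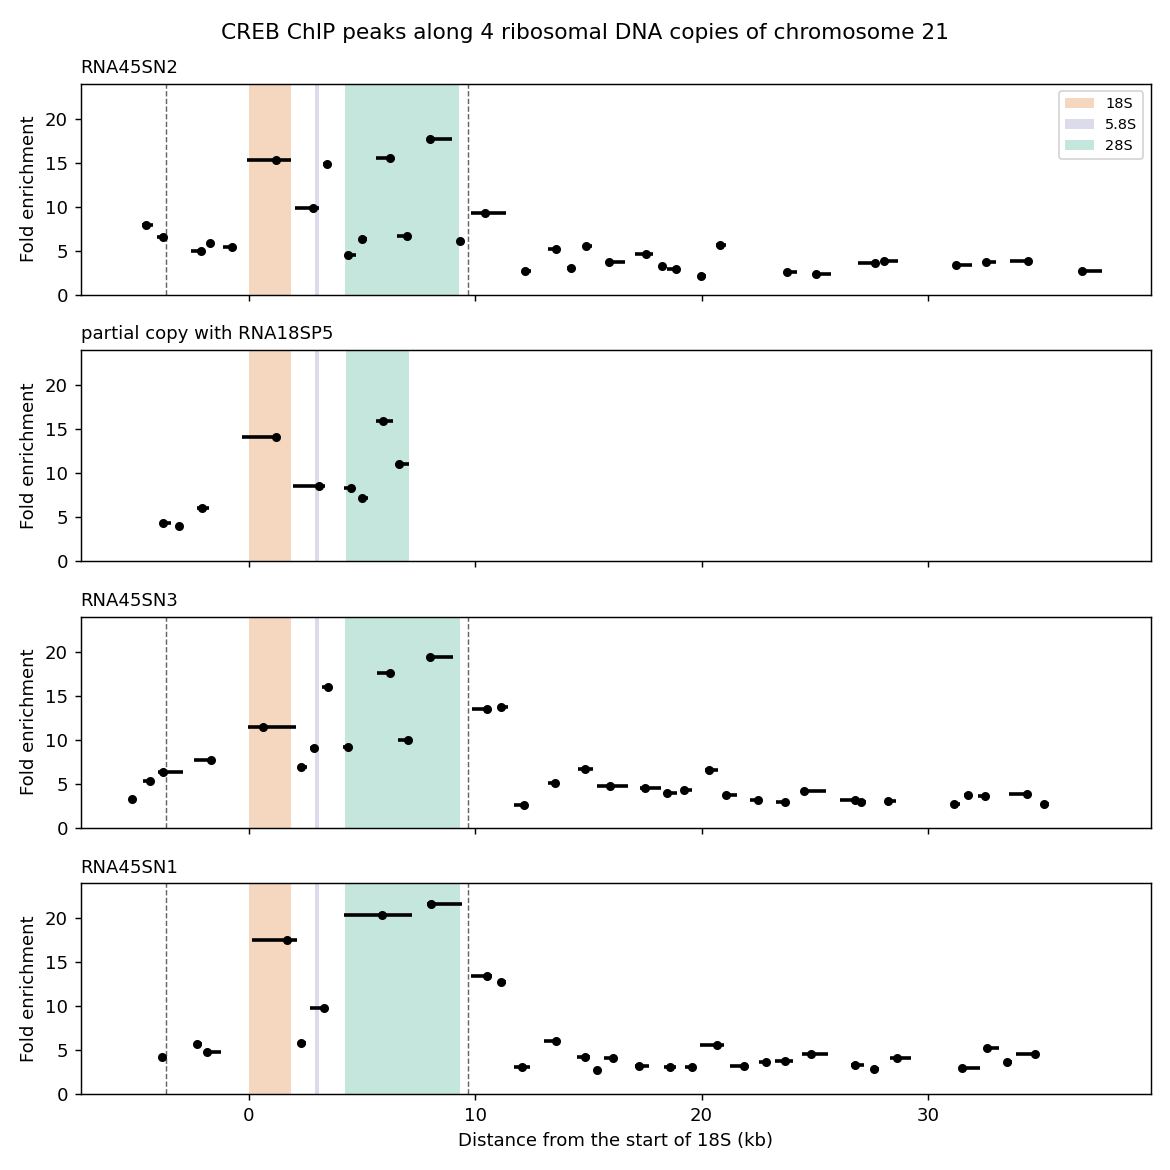
Fold enrichment (vertical axis) of the peaks along each of 4 rDNA copies, against the distance from the start of 18S in kb (horizontal axis). Bars span the peak, points mark the summit, shading marks 18S, 5.8S and 28S, and dashed lines mark the ends of the annotated 45S unit. In each copy folds above 10 lay from 18S onward, with the highest in the 28S gene at 17.7, 16.0, 19.4 and 21.7 from top to bottom.

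Each of the 3 annotated units had a summit just before the start of the 45S precursor. It lay 144 bp before the annotated start of RNA45SN2, 132 bp before that of RNA45SN3 and 158 bp before that of RNA45SN1, where the polymerase I factors assemble. Folds there were 6.59, 6.35 and 4.25, on 16 (exact Poisson 95% interval 9.15 to 26), 15 (8.40 to 24.7) and 16 (9.15 to 26) fragments. The partial copy, for which no 45S start is annotated, had a summit within 10 bp of the same place relative to 18S, with a fold of 4.31 on 14 fragments (7.65 to 23.5). The fragment counts of the 4 copies thus lay within each other's counting intervals. This cannot show that the copies agree, since they share sequence and the placement of reads that fit several copies is not given. Backgrounds were 1.58, 1.52 and 3.0 fragments at the 3 units and 2.48 at the partial copy, and the median fold of the whole list was 5.24. The 6 peaks with summits in the 5′ ETS, which is removed during processing, had folds of 4.79 to 7.69.

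Within the units the highest folds were in 18S, ITS2 and 28S. The 18S gene, which encodes the RNA of the small ribosomal subunit, had 1 peak in each copy, with a fold of 15.3 in RNA18SN2, 11.5 in RNA18SN3, 17.5 in RNA18SN1 and 14.1 in the pseudogene RNA18SP5. These rested on 28, 25, 22 and 22 fragments. The 5.8S gene, which encodes an RNA of the large subunit, held no summit but was overlapped by a peak in every copy, with folds of 9.80 in RNA5-8SN2, 9.06 in RNA5-8SN3, 9.87 in RNA5-8SN1 and 8.58 in RNA5-8SP10. These peaks had their summits in ITS1 or ITS2, and those of the annotated units are counted again in the ITS values that follow. In ITS2, between 5.8S and 28S, folds were 14.8, 16.0 and 9.87 in RNA45SN2, RNA45SN3 and RNA45SN1. ITS1 was lower, with 4 summits at folds of 5.88 to 9.80.

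The 28S gene, which encodes the main RNA of the large subunit, held 11 summits in the 3 units with a median fold of 15.5 (range 4.49 to 21.7). The strongest lay within the gene, at 8.0, 8.02 and 8.03 kb from the start of 18S. Its fold was 17.7 in RNA28SN2, on 37 fragments (95% interval 26.1 to 51.0) over 1.15, in a peak at 8217494 to 8218626. In RNA28SN3 it was 19.4, on 40 fragments (28.6 to 54.5) over 1.11, at 8400532 to 8401670. In RNA28SN1 it was 21.7, on 35 fragments (24.4 to 48.7) over 0.658, at 8444766 to 8446280, the highest fold of all acrocentric peaks and rank 24 in the whole list. The order of these folds was the reverse of the order of their backgrounds, while the fragment counts lay within each other's counting intervals. As upstream, reads that fit several copies may not be counted separately, so the intervals cannot show agreement. The next highest folds in 28S were 15.5 in RNA28SN2 and 17.6 in RNA28SN3, at 6.22 and 6.23 kb, and 20.4 in RNA28SN1, at 5.9 kb in a peak 2981 bp wide. The RNA28SN1 summit was thus not within 200 bp of those of RNA28SN2 and RNA28SN3. Its wide peak, from 4228 to 7208 bp after the start of 18S, nevertheless covered their place. The pseudogene LOC110467529, a 28S-like fragment at 8258134 to 8260930, had 4 peaks with a highest fold of 16.0.

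The intergenic spacer held more peaks than the units, with more fragments but lower folds. It is also the longer part, since units of 13.3 to 13.4 kb are spaced 44.2 kb apart from RNA45SN3 to RNA45SN1. The larger number of peaks therefore does not show a higher density. Beyond the 3 annotated units 63 summits lay in the spacer, with a median of 30 fragments, a background of 6.96 and a fold of 3.70. The 28 summits inside the units had medians of 14.5 fragments, 0.732 and 9.50. Fold and fragment number therefore ranked the parts of the repeat differently. Folds stayed high in the first part of the spacer: the 5 summits less than 2 kb past the end of 28S had a median fold of 13.5 (9.33 to 13.7) over a background of 1.90. Between 2 and 5 kb the median was 3.13, between 5 and 10 kb 4.18, between 10 and 20 kb 3.36 and between 20 and 30 kb 3.64, with backgrounds of 4.04 to 9.35. The largest number of fragments in the interval, 88 (95% interval 70.6 to 108), was at 8219434 to 8220977 just past RNA45SN2, with a fold of 9.33 over 8.54. The matching summits past RNA45SN3 and RNA45SN1 had 36 and 32 fragments over 1.74 and 1.45, with folds of 13.5 in both. RNA45SN2 thus stood apart from the other units there in fragments and background alike. Pseudogenes of the cell-cycle gene CDC27 lie in the spacer. CDC27P9 was overlapped by 2 peaks with folds up to 3.68, CDC27P10 by 7 with folds up to 4.15, and CDC27P11 by 3 with folds up to 5.27.

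**Figure D3:**
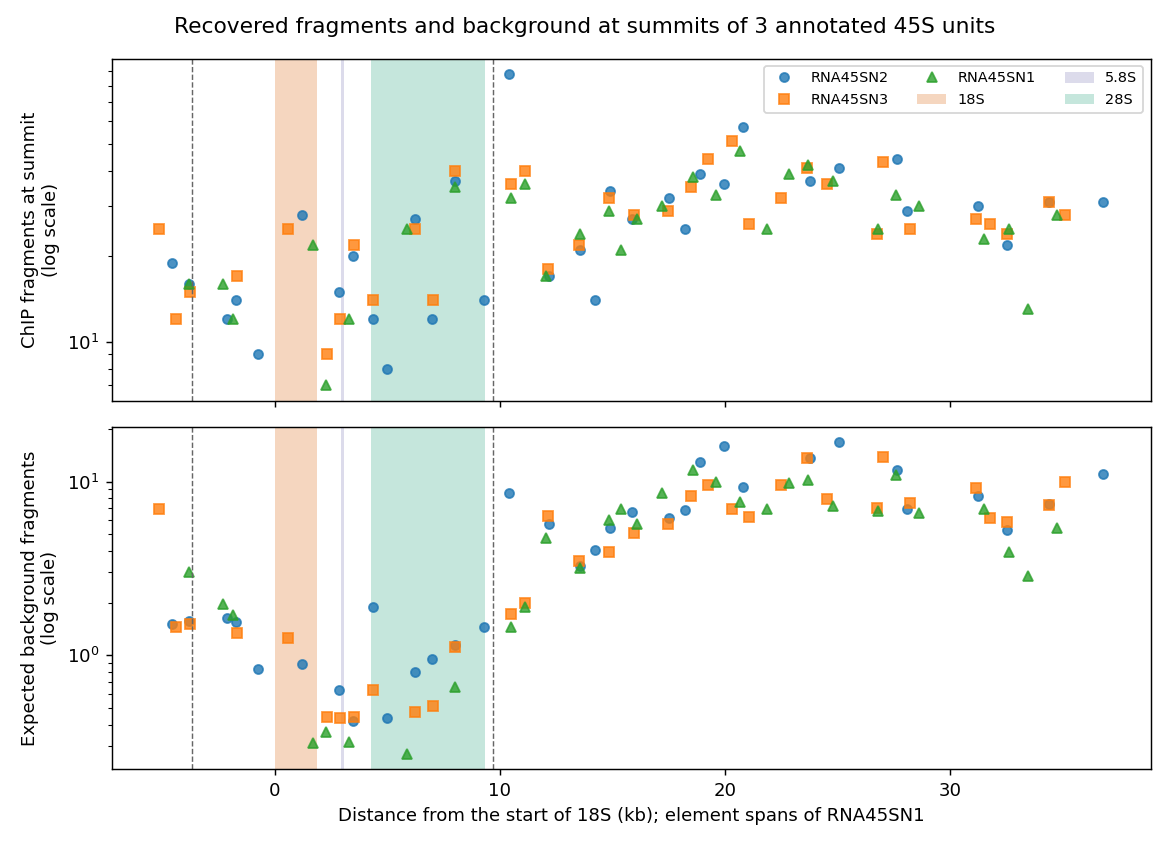
ChIP fragments at each summit (upper panel, log scale) and the background expected there (lower panel, log scale) against the distance from the start of 18S in kb, for RNA45SN2, RNA45SN3 and RNA45SN1. Shading and dashed lines mark the elements and ends of RNA45SN1. Background fell to 0.272 fragments within 28S and reached 16.8 in the spacer.

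Summits recurred between the units in part. Counting summits within 200 bp of the same place, 20 of 33 summits of RNA45SN2 and 20 of 34 of RNA45SN3 had a partner in the other (60.6 and 58.8%). RNA45SN1 had partners for 13 of its 30 summits in RNA45SN2 (43.3%), for 15 in RNA45SN3 and for 10 in both (33.3%). Of these 10 places, 1 lay upstream of the 45S start, 1 in the 5′ ETS, 1 in ITS2, 1 in 28S and 6 in the spacer. Each peak counted by 1 summit, so the 18S peaks, with summits at 1.22, 0.61 and 1.7 kb in RNA45SN2, RNA45SN3 and RNA45SN1, were no partners. Their intervals nevertheless overlapped in position. The share of partners that spacing alone would give was not computed. Recurrence is a description of copies with shared sequence and does not count as replication.

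Of 8 microRNA genes annotated in the rDNA interval, 4 overlapped a peak. MIR6724-1, just before the RNA45SN2 unit, overlapped a peak with a fold of 7.93 on 19 fragments, and MIR6724-3, at the same place before RNA45SN3, overlapped one with a fold of 5.29 on 12. MIR6724-2 and MIR6724-4, whose mature sequence is printed above, lay 432 and 416 bp from the nearest peak. MIR3648-1, in the 5′ ETS of RNA45SN2, overlapped a peak with a fold of 5.46 on 9 fragments over 0.831. Its copy MIR3648-2, which lies apart from the units at 8986999 to 8987178, overlapped a peak with a fold of 9.63 on 11 fragments (95% interval 5.49 to 19.7) over 0.246, the lowest background of the list. MIR10396A lay 286 bp from that same peak, and MIR10396B 638 bp from the 18S peak of RNA45SN1. Another peak, at 8988528 to 8988683, lay beyond MIR10396A with a fold of 10.7. Whether any of these microRNAs is expressed in NGP cells was not measured.

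The rest of chromosome 21 below 11 Mb held few peaks. The lncRNA LOC102724701 contained a pair of peaks with a fold of 4.56 each, 1 of them also in CH507-145C22.1. The lncRNA LINC01667 contained 1, with a fold of 5.62 and 6 fragments. At 7926141 to 7926320, in no annotated gene, a peak had a fold of 8.14 on 20 fragments over 1.58. A peak at 10692738 to 10693064, in no annotated gene, had a fold of 9.92 on 56 fragments (95% interval 42.3 to 72.7) over 4.74. Another, at 10325711 to 10325886, had the most fragments of all acrocentric peaks, 110 (90.4 to 133), but a fold of only 4.80, over a background of 22.1. These were the only acrocentric peaks outside the rDNA interval with 50 fragments or more.

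The centromere-proximal peaks of chromosomes 13, 14, 21 and 22 resembled each other. Median folds were 5.62 on chromosome 13, 5.62 on chromosome 14, 5.62 on chromosome 22 and 5.62 on chromosome 21 outside the rDNA interval, each with a median of 7 fragments over 0.316. Folds here moved in steps of whole fragments: where the background was 0.246 fragments, as at 163 of the 611 peaks, 4 fragments gave a fold of 4.01, 5 gave 4.82, 6 gave 5.62 and 7 gave 6.42. The strongest on chromosome 21 was at 12219159 to 12219400, with a fold of 13.4 on 17 fragments (95% interval 9.90 to 27.2), followed by 12607253 to 12607608 with 12.0 on 14. On chromosome 13 the strongest, at 17928316 to 17928675, had a fold of 11.2 on 13 fragments (6.92 to 22.2). On chromosome 14 it was at 17864937 to 17865323, with 10.4 on 16 (9.15 to 26). On chromosome 22, 4 peaks had a fold of 10.4, on 12 to 16 fragments. The 3 peaks of chromosome 15 had folds of 4.01, 4.82 and 5.62 on 4, 5 and 6 fragments. The intervals of the strongest peaks overlapped between these chromosomes. Because these peaks were picked for their high folds, this overlap does not compare the chromosomes.

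Outside the rDNA interval 5 of 500 peaks overlapped an annotated gene. No acrocentric peak of chromosomes 13, 14 or 15 overlapped a RefSeq gene. On chromosome 22 the DUX4-like pseudogene DUX4L44 overlapped a peak with a fold of 8.83 on 10 fragments. ADA2, a long-arm gene for a secreted adenosine deaminase, overlapped a peak at 17189020 to 17189343 with a fold of 4.64 on 5 fragments. In all, 56 of the 611 peaks overlapped a gene (9.17%), against 24.8% of all 5029 peaks on assembled chromosomes, and all but 6 of the 56 lay in the rDNA copies.

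**Figure D4:**
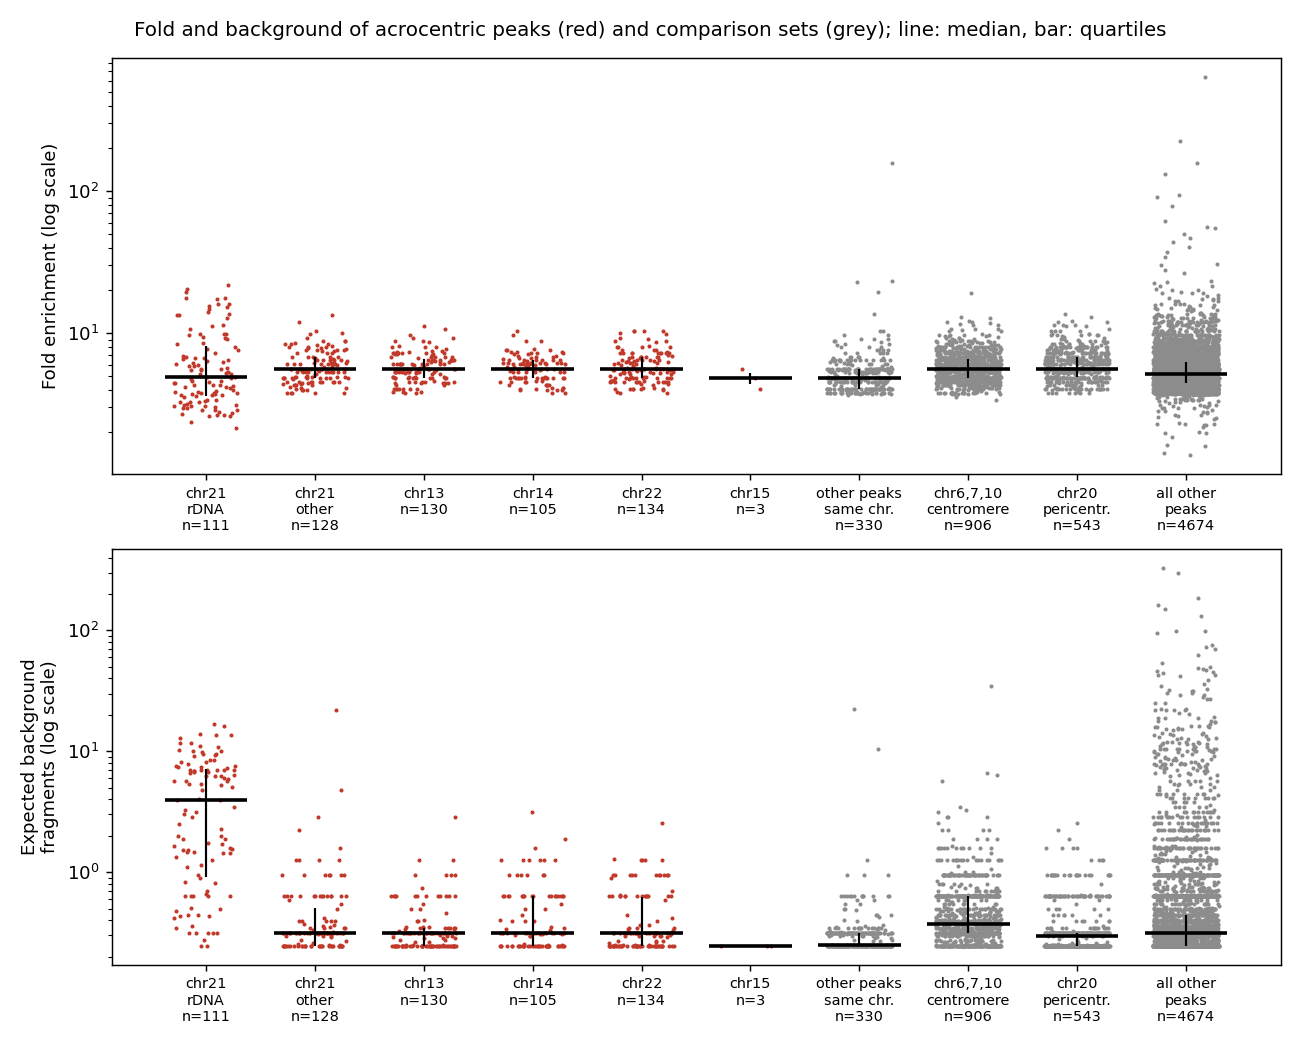
Fold enrichment (upper panel, log scale) and expected background fragments (lower panel, log scale) of acrocentric peaks by region (red, left) and of other peaks of the list (grey, right). Points are peaks, horizontal lines medians and vertical bars quartiles. The rDNA interval has the highest median background, 3.92, and the widest folds, 2.16 to 21.7, of the acrocentric regions.

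Set beside other centromere-proximal peaks, the acrocentric peaks outside the rDNA interval had the same median fold but were narrower. Their median fold was 5.62, against 5.62 at 906 peaks of the centromere intervals of chromosomes 6, 7 and 10 and 5.62 at 543 peaks of chromosome 20 between 26 and 29 Mb. Folds move in steps, 5.62 being that of 6 fragments over 0.246, so equal medians do not show that the sets are alike. Median backgrounds were 0.316 fragments, against 0.376 and 0.297. A fold of 10 or more was reached by 2.40% of these 500 acrocentric peaks, against 1.77% and 2.76%. Their median width was 214 bp, against 261 and 280 bp. The lowest background of the list was found at 32.2% of them, close to the 31.4% of all peaks, against 13.1% and 44.8%. Peaks on the remainder of the same 5 chromosomes, 330 in number, had a median fold of 4.82 on 5 fragments over 0.247, and all 4674 other peaks of the list 5.16 on 6 over 0.316. The rDNA interval peaks were also wider, with a median of 526 bp, against 214 bp in the other 500 acrocentric peaks and 237 bp in all peaks outside the acrocentric ends. These differences describe peaks of 1 library and were not tested.

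The authors' deposited table, which pairs peaks with transcription start sites (TSS) within 50 kb, took in 108 acrocentric peaks (17.7%, 95% interval 14.7 to 20.9), against 24.9% of all peaks. All but 2 of the 108 were rDNA interval peaks, 106 of 111. The interval of the 17.7% takes these peaks as separate, though they lie on copies of shared sequence, and may be too narrow. Those 108 peaks gave 1239 of the table's 4780 pairs (25.9%), with a median of 7 pairs each and up to 21, against a median of 2 for paired peaks elsewhere. In the authors' deposited table these pairs rested on 32 symbols, of which 18 were rRNA genes and 9 microRNA genes. MIR10396A, MIR10396B, RNA45SN1 and RNA45SN5 were each paired with 64 peaks, and RNA28SN1 with 60. The other rDNA symbols had 33 to 43, LOC100507412 with 33 and MIR663A with 42 among them.

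Many of these symbols stood at the same place. The 28 symbols of the rDNA interval had 15 distinct TSS, with RNA18SN1 to RNA18SN5 all at 8209631 and MIR6724-1 to MIR6724-4 all at 8205315 in the authors' deposited table. For 17 of the 28, RefSeq gave a start elsewhere: MIR10396A, for example, is at 8987617 in RefSeq and at 8436325 in the authors' deposited table, and MIR663A is on chromosome 20 in RefSeq and on chromosome 21 in the table. A peak paired with these symbols in the table therefore cannot be tied to 1 gene copy. Outside the rDNA, 1 peak was paired with LINC01667, 6.6 kb from its TSS, and the chromosome 22 peak within ADA2 was paired with ADA2 at 32.7 kb, HDHD5-AS1 at 29.8 kb and HDHD5 at -23.9 kb, signs as in that table.

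The genes that make and process rRNA were examined as a list, since the rDNA carried peaks. None of 22 genes for RNA polymerase I, its initiation factors and its terminator, UBTF and RRN3 among them, had a peak within 50 kb in the authors' deposited table, against 8.48% of all protein-coding genes. At that share 0 in 22 genes is no result about them. None of these or of 34 ribosome biogenesis genes had a peak closer than 1 kb to its start, against 1.33% of all 19974 protein-coding genes, a share so low that 0 in 56 genes is no result about the list. Within 50 kb of a peak were 4 of the 56, which is no more than that 8.48% and likewise no result about the list: NCL, which encodes nucleolin, at 29.9 kb with a fold of 4.26, NOP2, an rRNA methyltransferase, at 30.5 kb with 5.32, IMP3, a subunit of the small-subunit processome, at 16.6 kb with 3.83, and EMG1, another rRNA methyltransferase, at 46.8 kb with 3.71. All 4 peaks rested on 4 to 6 fragments.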

How the data were processed

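The submitters' processing notes name Bowtie2, MACS2 and hg38. Their versions, any filters, and what was done with duplicates or reads fitting several places are not given in these sources. Library depths were not analysed here. The peak list deposited by the authors holds, for the summit of each peak, its fold over background, its −log10 p and its −log10 q, with a score for the peak. The table deposited by the authors repeats that score for peaks paired with a TSS and gives TSS positions.

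Fragments and background were recovered by taking fold as (fragments + 1) / (background + 1) and p as a Poisson tail, within 0.001 on −log10 p (a relative 1e-05 above 100). All 5285 peaks were recovered. For 5 of the 611 acrocentric peaks more than 1 whole number fitted and the closest was kept. Recovery was tested on simulated data. Poisson and Clopper-Pearson intervals (95%, scipy 1.17.1) cover counting error only and take peaks and copies as separate. No genome sequence was used. RefSeq genes (GRCh38.p14) gave annotations, without strand.

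Peaks and gene lists were chosen with earlier results of these data known. Named were rRNA and paired microRNA genes, and the 10 other genes overlapped at the highest fold, with CDC27P9 added. Also named were the symbols paired with most peaks and the strongest peaks per region. The sites compared across rDNA copies, and the peak at 7926141 to 7926320, the peak beyond MIR10396A, and the peaks with 50 fragments or more, were chosen after their values were seen. Alternatives were a stricter q, shifted limits, merged peaks, other overlaps, and leaving out chromosome 21.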

Additional observations from a re-analysis of the deposited data

How the results depend on the processing

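Of 42 values recomputed under other settings, 22 stayed within the 95% interval of the reported value or, for counts, within 1.5 times. With only peaks of −log10 q of 5 or more, 247 peaks were left, with a median fold of 7.22, a median background of 0.336, 12.6% at a fold of 10 or more and 27.9% in the authors' table. With limits 1 Mb lower there were 350 peaks, with 7.14% at a fold of 10 or more, a background of 0.354 and 30.6% in the table. Without chromosome 21 there were 372 peaks, with 2.15% at a fold of 10 or more, 0 on a 45S unit and 0.269% in the table. Without the 8 to 9 Mb interval, an alternative chosen after seeing the data, these were 2.40%, 0 and 0.4%. Merging peaks with gaps of 1 kb or less left 7 on 45S units and 4.33% in the table. A fold of 20 was reached by 0.327%, and 6.22% had a summit within 5 kb of a TSS. The median fold was 5.52 to 5.62 under every other setting run. The cause of these shifts was not tested. No paired analysis was possible because each group has 1 sample. Most peaks outside the rDNA rest on fewer than 10 fragments, which limits any ranking among them.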

Other observations

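Ribosomal DNA on contigs outside the assembled chromosomes also carried peaks. An unplaced contig of hg38 had 38 peaks; its folds had a median of 4.37 and reached 30.8 on 42 fragments over 0.396, and an unlocalised contig of chromosome 22 had 27, with folds that reached 27.8 (median 7.35) on 35 fragments over 0.297. Both maxima lay in the copies of the pseudogenes RNA18SP3 and RNA18SP4. RefSeq lists RNA45SN5 at 105424 to 118780 and RNA45SN4 at 122273 to 135645 without naming the contig. Read as positions on the unplaced contig and on the chromosome 22 contig, these units overlapped 9 and 11 peaks, with median folds of 7.43 and 7.61 over backgrounds of 1.18 and 0.95. Of these peaks, 3 of 9 and 4 of 11 had a summit within 200 bp of the same place as one of RNA45SN1. The other peaks of each contig, which take in the spacer and the pseudogene copies, had a median fold of 3.87 over 6.90 on the unplaced contig (29 peaks) and 5.16 over 1.72 on the chromosome 22 contig (16 peaks).

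The summit just upstream of the 45S start, at -3787 bp from the start of 18S, was found within 105 bp at all 8 copies of 18S examined, 4 on chromosome 21 and 4 on these contigs, with folds of 2.98 to 6.59 on 11 to 18 fragments. The strong 28S summit, at 8022 bp after the start of 18S, was found within 31 bp at 6 of the 8, with folds of 17.3 to 30.8 on 35 to 42 fragments, among them 17.3 in the RNA18SN4 copy, 27.8 in that of RNA18SP4 and 30.8 in that of RNA18SP3. It was not found within 200 bp at the RNA18SP5 copy, whose annotated 28S-like fragment ends before that place, nor at the RNA18SN5 copy, whose nearest summit lay 743 bp away with a fold of 12.3. Both sites were chosen after their values were seen, and the copies share sequence, so these are not independent sites.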
